A study of Homo sapiens with 2 samples.

Results

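Peaks in gene deserts were the H3K27ac and H3K4me1 peaks that lay outside all protein-coding gene bodies and more than 500 kb from the nearest end of a protein-coding gene. Each of the 2 peak lists was taken on its own, for chromosomes 1 to 22 and X, with gene spans from RefSeq for GRCh38. The rule kept 558 of 64784 H3K27ac peaks, 0.861% of the list (95% interval 0.792 to 0.935), and 2631 of 139511 H3K4me1 peaks, 1.89% (1.82 to 1.96). Both libraries came from an enzalutamide-resistant derivative of C4-2B, an established castration-resistant human prostate cancer line descended from LNCaP. The cells had been grown for at least 6 months with enzalutamide, an antiandrogen drug. Each library was made by CUT&Tag, in which an antibody tethers a transposase that cuts and tags DNA beside the marked nucleosome, from 100000 cells with 14 PCR cycles. The labels give 1 library per antibody and no sensitive parental line or control antibody among the samples used here, so the values below describe this resistant culture, have no replicate check and carry no test.

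H3K4me1 is deposited at enhancers in both their poised and their active state, and H3K27ac is added where an enhancer or promoter is active. Gene deserts are long stretches without protein-coding genes. Some hold enhancers that act over long distances on developmental regulators at their borders, and many hold long noncoding RNA (lncRNA) genes, of which some are the host transcripts of microRNAs. A microRNA recognises its targets mainly through its seed, bases 2 to 8 from its 5′ end, so microRNAs with the same seed share many predicted targets.

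The desert peaks lay at or near a few microRNA genes, and their mature sequences from RefSeq (GRCh38.p14) are shown 5′ to 3′ because 2 pairs of them share a seed, 1 pair from different deserts and 1 from the same desert. Seeds were compared only among the microRNA genes with a peak within 10 kb. Capitals mark the seed.
let-7c-5p: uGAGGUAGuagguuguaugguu
miR-4458: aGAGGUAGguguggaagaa
miR-99a-5p: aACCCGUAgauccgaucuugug
miR-125b-5p: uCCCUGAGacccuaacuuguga
miR-221-3p: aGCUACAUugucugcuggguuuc
miR-222-3p: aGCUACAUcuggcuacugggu
The let-7c-5p gene on chromosome 21 and the miR-4458 gene on chromosome 5 encode the same seed, GAGGUAG. miR-221-3p and miR-222-3p, which are neighbours on chromosome X, share GCUACAU. miR-99a-5p and miR-125b-5p, from the same host transcript as let-7c-5p, each have a seed of their own among the microRNAs with a peak nearby.

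Start windows of 4 desert lncRNAs that overlapped an H3K27ac peak are shown next, because they lie at the deepest H3K27ac desert peak, at microRNA hosts and in the immunoglobulin heavy chain locus. Each sequence is the RefSeq window from 250 bases before to 50 after the start, on the strand of the gene, and capitals mark CpG pairs. The start base itself lay under the peak at LINC02226 and MIR222HG, while the peak reached only 6 bp into the MIR99AHG window and 85 bp into the LOC124903399 window.
LINC02226 (chr5:8457515-8457814, minus strand): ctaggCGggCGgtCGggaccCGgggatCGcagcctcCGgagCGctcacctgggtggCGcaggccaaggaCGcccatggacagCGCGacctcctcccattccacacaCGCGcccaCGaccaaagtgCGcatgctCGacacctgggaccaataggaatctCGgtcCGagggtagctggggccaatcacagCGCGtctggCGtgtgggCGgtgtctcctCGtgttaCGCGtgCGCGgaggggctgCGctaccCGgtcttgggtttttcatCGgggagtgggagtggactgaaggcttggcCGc
MIR222HG (chrX:45770218-45770517, minus strand): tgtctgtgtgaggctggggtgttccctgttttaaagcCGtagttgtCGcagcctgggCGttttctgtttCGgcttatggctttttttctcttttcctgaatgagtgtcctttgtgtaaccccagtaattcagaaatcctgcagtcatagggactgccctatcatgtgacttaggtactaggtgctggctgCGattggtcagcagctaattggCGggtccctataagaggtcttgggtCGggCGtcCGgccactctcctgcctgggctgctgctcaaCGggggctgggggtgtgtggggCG
MIR99AHG (chr21:16535322-16535621, plus strand): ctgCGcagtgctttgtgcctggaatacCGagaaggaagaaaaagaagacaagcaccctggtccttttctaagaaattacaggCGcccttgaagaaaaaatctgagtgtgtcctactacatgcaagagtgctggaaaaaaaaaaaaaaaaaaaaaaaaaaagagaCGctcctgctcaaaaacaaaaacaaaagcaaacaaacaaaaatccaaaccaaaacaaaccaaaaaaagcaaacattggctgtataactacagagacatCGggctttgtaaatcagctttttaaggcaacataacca
LOC124903399 (chr14:106845561-106845860, plus strand): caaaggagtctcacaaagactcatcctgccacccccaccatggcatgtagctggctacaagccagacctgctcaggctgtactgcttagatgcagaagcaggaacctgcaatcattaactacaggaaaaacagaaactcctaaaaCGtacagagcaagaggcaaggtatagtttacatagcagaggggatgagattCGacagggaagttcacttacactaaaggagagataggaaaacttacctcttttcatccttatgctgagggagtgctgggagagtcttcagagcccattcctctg
The LINC02226 window held 31 CpG pairs and 67.3% G or C, and it shares 222 bp with the window of MIR4458HG, which starts on the other strand. The MIR222HG window held 11 CpG pairs. The MIR99AHG window, at a start within the desert portion of that gene, held 5 CpG pairs and 37.3% G or C, and the LOC124903399 window held 2.

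For each peak the number of fragments piled up at the summit was recovered as a whole number from the deposited fold enrichment and p-value, which succeeded for 100% of both lists. Intervals on fragments are exact Poisson 95% intervals and those on shares are exact Clopper-Pearson 95% intervals. Both cover counting error only, since duplicate reads from PCR could not be seen. The number of reads per library is unknown here, and over the whole lists the median summit held 13 H3K27ac and 18 H3K4me1 fragments. As a check of the labelled cell type, 7 of 8 luminal prostate genes (KLK3, KLK2, FOXA1, HOXB13, TMPRSS2, STEAP2, SLC45A3 and TRPM8) had peaks of both marks within 2.5 kb of a gene end, all but TRPM8. The deepest peak at each of those 7 genes held 25 to 534 H3K27ac and 48 to 223 H3K4me1 fragments. Of 8 blood genes, 4 had an H3K27ac peak there, with 4 to 31 fragments, and CD3E and SPI1 had H3K4me1 peaks of 59 and 33 fragments, so the depths of the 2 gene sets overlapped. The share of all coding genes with a peak that near was not counted. Coding start windows, a narrower measure, carried H3K27ac in 54.5% and H3K4me1 in 53.9%. The counts of the 2 gene sets therefore do not settle the cell type.

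Desert peaks were sparse and narrow. H3K27ac desert peaks held a median of 9 fragments (25th and 75th percentiles 6 and 17), were 204 bp wide at the median and stood 6.06-fold over local background at the median. H3K4me1 desert peaks held a median of 12 fragments (8 and 19), with medians of 171 bp and 7.06-fold. Intergenic peaks within 500 kb of a coding gene had medians of 9 fragments and 218 bp for H3K27ac and of 15 fragments and 199 bp for H3K4me1. Thus the H3K27ac summits of deserts were as deep at the median as those nearer to genes, and the H3K4me1 summits were shallower. Fewer than 10 fragments supported 287 of the H3K27ac desert peaks (51.4%) and 971 of the H3K4me1 desert peaks (36.9%). The same shares were 50.5% and 27.7% for nearer intergenic peaks and 38.5% and 22.3% for the whole lists.

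Peak density fell with each step away from coding genes. Intergenic sequence within 2.5 kb of a coding gene end held 37.5 H3K27ac peaks per Mb, against 4.18 at 250 to 500 kb, 2.27 at 500 to 1000 kb and 0.913 beyond 1000 kb. H3K4me1 fell from 94.3 per Mb to 19.4, 11.3 and 3.53 over the same distances. Deserts covered 334.9 Mb between the first and the last peak of each chromosome, and much of that length lay in stretches of over 1 Mb without a peak in either list, which include assembly gaps and cannot be told apart from sequence to which reads do not map. With those stretches left out, the density at 500 to 1000 kb was 3.38 per Mb for H3K27ac and 16.8 for H3K4me1. Beyond 1000 kb it was 3.20 and 12.4. Leaving out stretches because they hold no peak raises the density by construction, and it removed more of the farther bin (from 148.9 to 42.4 Mb) than of the nearer one (from 186.0 to 124.9 Mb), so no order of the 2 desert distances is read from the second set of values.

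**Figure D1:**
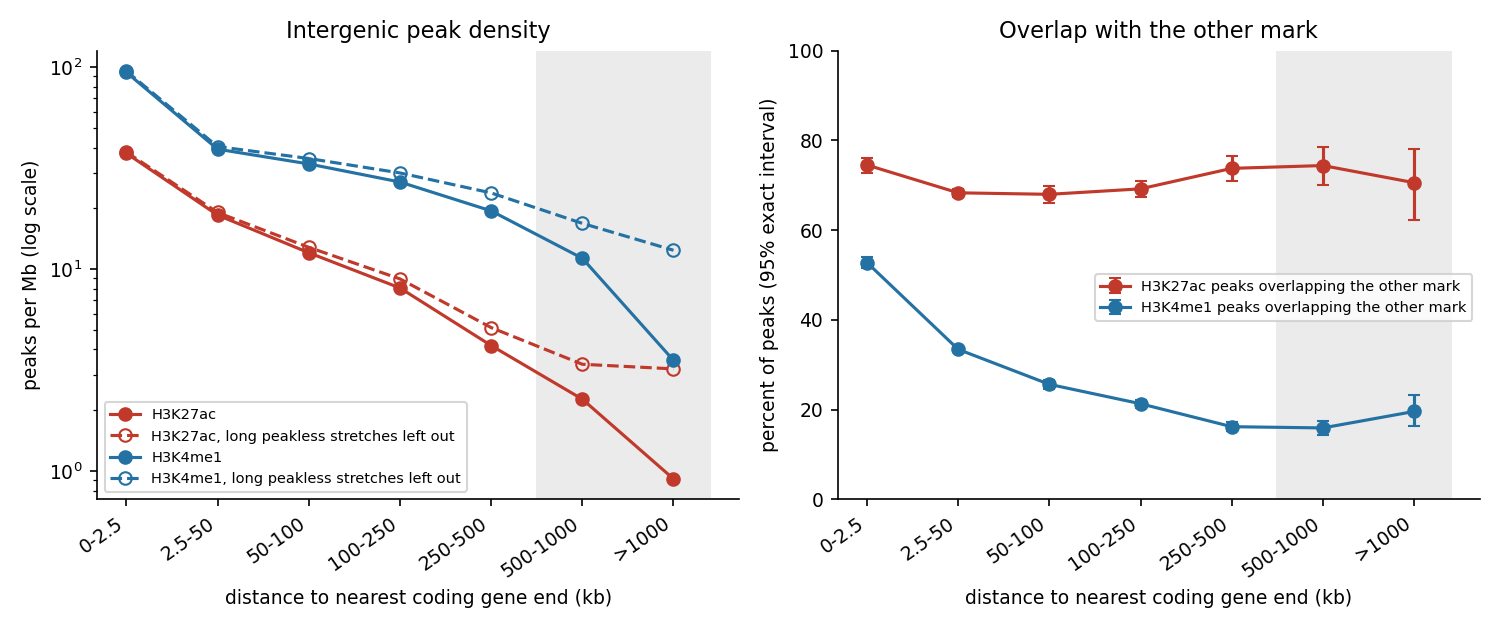
Left, intergenic peaks per Mb on a log scale against the distance to the nearest coding gene end in kb, with dashed lines for the values after peakless stretches over 1 Mb are left out. Right, the percent of peaks that overlap the other mark with exact 95% intervals. The shaded bins are deserts, where H3K27ac overlap stays near its level beside genes (74.4% and 70.6%) while H3K4me1 overlap is at 15.9% and 19.6%. The bin before them, 250 to 500 kb, has an H3K4me1 overlap of 16.2%.

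The marks overlapped unequally in the 2 directions. Of the 558 H3K27ac desert peaks, 410 shared at least 1 bp with an H3K4me1 peak, which is 73.5% (69.6 to 77.1). The share over all H3K27ac peaks was 73.6%, and over intergenic peaks nearer to genes it was 69.6% (68.9 to 70.2). Acetylated sites in deserts thus carried H3K4me1 about as often as acetylated sites elsewhere. Of the 2631 H3K4me1 desert peaks, 438 overlapped H3K27ac, which is 16.6% (15.2 to 18.1), against 38.1% over all H3K4me1 peaks and 31.2% (30.8 to 31.6) over intergenic peaks nearer to genes. The intervals of the desert and nearer shares did not overlap for H3K4me1. The nearer share fell with distance, from 52.8% within 2.5 kb of a coding gene end to 16.2% (15.1 to 17.3) at 250 to 500 kb. That last value was close to the desert share, so low H3K4me1 overlap was not particular to deserts. The H3K4me1 share was below the nearer intergenic share of the same chromosome on 21 of the 23 chromosomes, whereas the H3K27ac share was below it on 6 of the 20 chromosomes with at least 10 such peaks.

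Overlap rose with depth for both marks, so the shares were also taken within 4 depth classes, set by the fragments of the whole list. For H3K4me1 the desert share was 7.34% (5.89 to 9.0) at 4 to 10 fragments and 11.7% (9.57 to 14.1) at 11 to 18. It was 27.7% (23.6 to 32.1) at 19 to 33 fragments and 59.1% (52.5 to 65.5) at 34 or more. Nearer intergenic peaks of the same depths gave 10.8%, 21.8%, 39.8% and 70.9%, above the desert interval in each class. These nearer values pool all distances up to 500 kb, and depth classes were not taken by distance. For H3K27ac the desert share was 54.2% (47.5 to 60.9) at 4 to 7 fragments, 82.6% (75.5 to 88.3) at 8 to 13, 85.8% (78.5 to 91.4) at 14 to 35 and 98.2% (90.6 to 100.0) at 36 or more. The nearer intergenic values were 41.4%, 76.6%, 93.1% and 96.6%, of which the first lay below the desert interval, the third above it and the other two inside it.

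**Figure D2:**
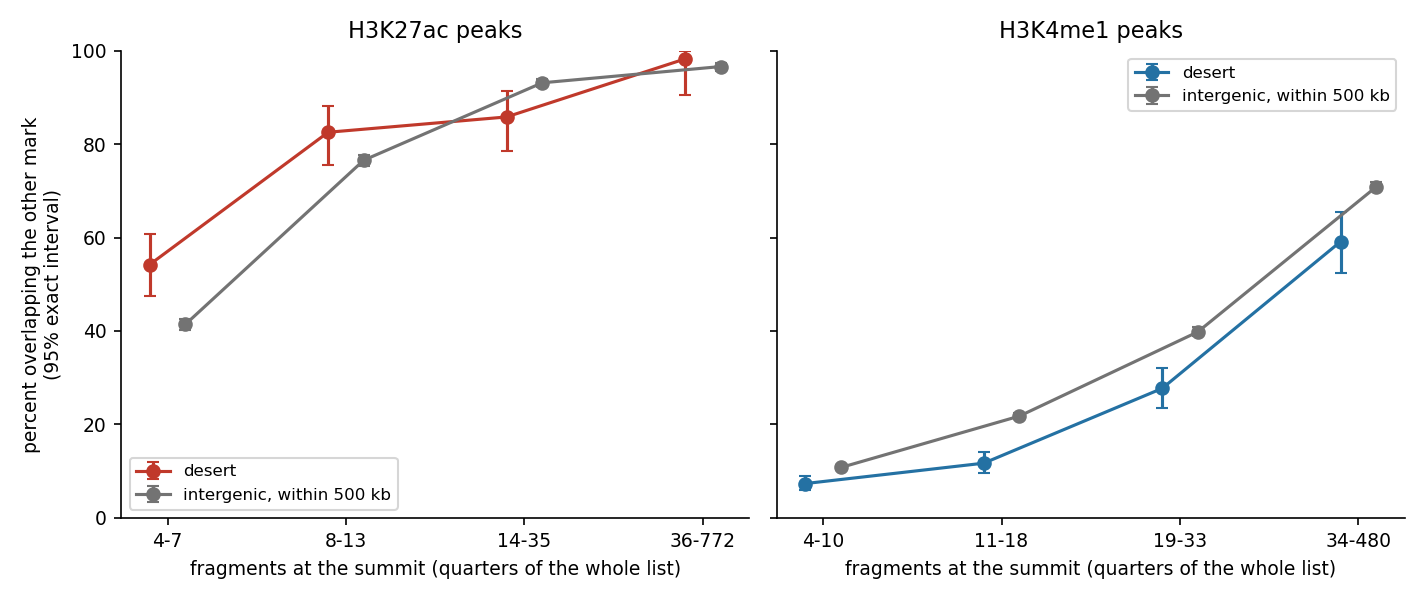
Percent of peaks overlapping the other mark with exact 95% intervals, against fragments at the summit, for desert peaks in colour and intergenic peaks within 500 kb of a coding gene in grey. In each depth class the H3K4me1 desert share lies under the grey share, 59.1% against 70.9% in the deepest class.

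Where both marks met, their summits nearly coincided. At the 410 H3K27ac desert peaks with H3K4me1, the median distance between the 2 summits was 27 bp, and the median depths were 11 H3K27ac and 25 H3K4me1 fragments. More H3K4me1 than H3K27ac fragments were counted at 301 of these sites, fewer at 94 and the same number at 15. The 2 libraries were not scaled to each other, so this is a comparison of raw depth. The depths ran loosely together across sites (Spearman 0.38, a description over 410 sites that share their 2 libraries). The 148 H3K27ac peaks without H3K4me1 were shallow, with a median of 6 fragments, and 33 of them held 10 or more. The deepest, chr22:11936256-11936563, held 52 fragments (38.8 to 68.2) and lay within the lncRNA gene LOC102723769. The 2193 H3K4me1 peaks without H3K27ac had a median of 11 fragments, against 23 for those with it. The deepest of them, chr3:116971558-116971784 in the desert between LSAMP and IGSF11, both of which encode immunoglobulin-family adhesion proteins, held 83 fragments (66.1 to 102.9).

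The 3 deepest H3K27ac desert peaks lay at lncRNA ends. The first, chr5:8457326-8458310, held 231 H3K27ac fragments (202.2 to 262.8) and 70 H3K4me1 fragments (54.6 to 88.4). It covered the starts of LINC02226 and MIR4458HG, whose shared CpG-rich sequence is shown above, and lay 556.2 kb from MTRR, which encodes methionine synthase reductase. The second, chr5:12573953-12575052, held 219 (191.0 to 250.01) with 59 H3K4me1 fragments and covered one end of LINC01194 and one of LOC105374655, between the catenin gene CTNND2 and the dynein gene DNAH5. The third, chr3:80770148-80770900 in the desert between ROBO1 and GBE1, held 176 (151.0 to 204.0) with 103 H3K4me1 fragments. H3K27ac was deeper than H3K4me1 at each of these 3 sites, the less common order among sites with both marks. Picking sites by their H3K27ac depth favours that order, so no contrast with other sites is read from it.

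The other H3K27ac peaks among the deepest 10 held 90 to 169 fragments, and each overlapped H3K4me1. They included chr22:12097710-12098474 with 169 (144.5 to 196.5) at the start of LOC107987323, chr14:106844591-106845645 with 139 (116.9 to 164.1) in the immunoglobulin heavy chain locus, and chr4:189364025-189364472 with 126 (105.0 to 150.0) at the start of LOC105377614. They also included chr17:22266239-22266969 with 104 (85.0 to 126.0), over the opposed starts of LINC02002 and LOC105371597 and within 500 kb of a long peakless stretch.

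The deepest H3K4me1 desert peaks were mostly other sites. The first, chr9:63823164-63824035, held 273 H3K4me1 fragments (241.6 to 307.4) and 83 H3K27ac fragments, 3.51 kb from the microRNA gene MIR4477B. Whether reads map uniquely at that site was not tested. The second, chr3:117279009-117279174 between LSAMP and IGSF11, held 140 (117.8 to 165.2) with 28 H3K27ac fragments. The fourth, chr9:90107135-90107364, held 118 (97.7 to 141.3) with 35 H3K27ac fragments. It lay just past the 500 kb limit between GADD45G, a stress-response gene, and DIRAS2, a small GTPase gene. Near chr3:80770148-80770900 an H3K4me1 peak of 103 fragments (84.1 to 124.9) was the seventh, and the immunoglobulin site had the third with 130 (108.6 to 154.4).

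The number of peaks differed between deserts. RefSeq coding genes left 323 deserts between the first and the last peak of their chromosomes, of which 232 held a peak, 146 held H3K27ac, 231 held H3K4me1 and 91 had no peak listed. The 10 deserts with the most peaks held 152 H3K27ac peaks (27.2%) and 449 H3K4me1 peaks (17.1%). Those 10 were picked by their counts, and counts were not set against length. The length over 500 kb from a coding gene was 21.4 Mb between LINC02798 and H3-7 but 0.000655 Mb between BPNT2 and FAM110B. No concentration beyond length is therefore read from these counts. The desert on chromosome 22 before OR11H1, an olfactory receptor gene, held 41 H3K27ac and 46 H3K4me1 peaks. That between USP25, a deubiquitinase gene, and CXADR, the coxsackievirus and adenovirus receptor gene, on chromosome 21 held 28 and 59. These 2 deserts had the same number of peaks, 87, but differed in the mix of marks.

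Most of the other 8 leading deserts held far more H3K4me1 than H3K27ac peaks, as did all deserts together (2631 against 558). The MAT2B to TENM2 desert on chromosome 5 held 16 H3K27ac and 57 H3K4me1 peaks, and each of the 16 overlapped H3K4me1. TENM4 to FAM181B on chromosome 11 held 11 and 60, LSAMP to IGSF11 held 8 and 54, and CTNNA2 to SUCLG1 on chromosome 2 held 5 and 42. ROBO1 to GBE1 held 8 and 33, and PCDH7 to ARAP2 on chromosome 4 held 5 and 35. Among the flanking genes, TENM2 and TENM4 encode teneurins, ROBO1 an axon guidance receptor and PCDH7 a protocadherin, while MAT2B, GBE1 and SUCLG1 encode metabolic enzymes or their subunits. The other two stood apart in kind, since one lay in the immunoglobulin heavy chain locus after TMEM121 (12 and 40) and the other beside a long peakless stretch between KCNJ18 and WSB1 on chromosome 17 (18 and 23).

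By chromosome, H3K27ac desert peaks were densest on chromosome 22 (48 peaks, 9.62 per Mb) and chromosome 21 (40 peaks, 4.62 per Mb). Chromosome 4 held the most, 62, at 1.98 per Mb. On chromosome 22, 41 of the 48 lay in the desert before OR11H1. Pseudogenes with FRG1 or DUX4L symbols lay beneath desert peaks on chromosomes 9, 20 and 22. Whether reads map uniquely there, or at the deepest desert peaks, was not tested. H3K4me1 was densest on chromosome 15 (34 peaks, 15.8 per Mb) and sparsest on chromosome 16 (14 peaks, 0.918 per Mb). The order depended on the long peakless stretches. Without them H3K27ac was at 18.1 per Mb on chromosome 22, 15.1 on chromosome 17 and 11.7 on chromosome 21, and H3K4me1 was at 27.9 per Mb on chromosome 17, 22.3 on chromosome 15 and 15.5 on chromosome 16. The H3K4me1 share overlapping H3K27ac was highest on chromosome 22, at 56.9%. Of all desert peaks, 88 H3K27ac and 231 H3K4me1 peaks lay within 500 kb of a long peakless stretch. Those H3K27ac peaks overlapped H3K4me1 in 54.5%, and the 470 away from such stretches in 77.0% (72.9 to 80.8). On chromosome 17, 18 of the 19 H3K27ac desert peaks were of the first kind.

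**Figure D3:**
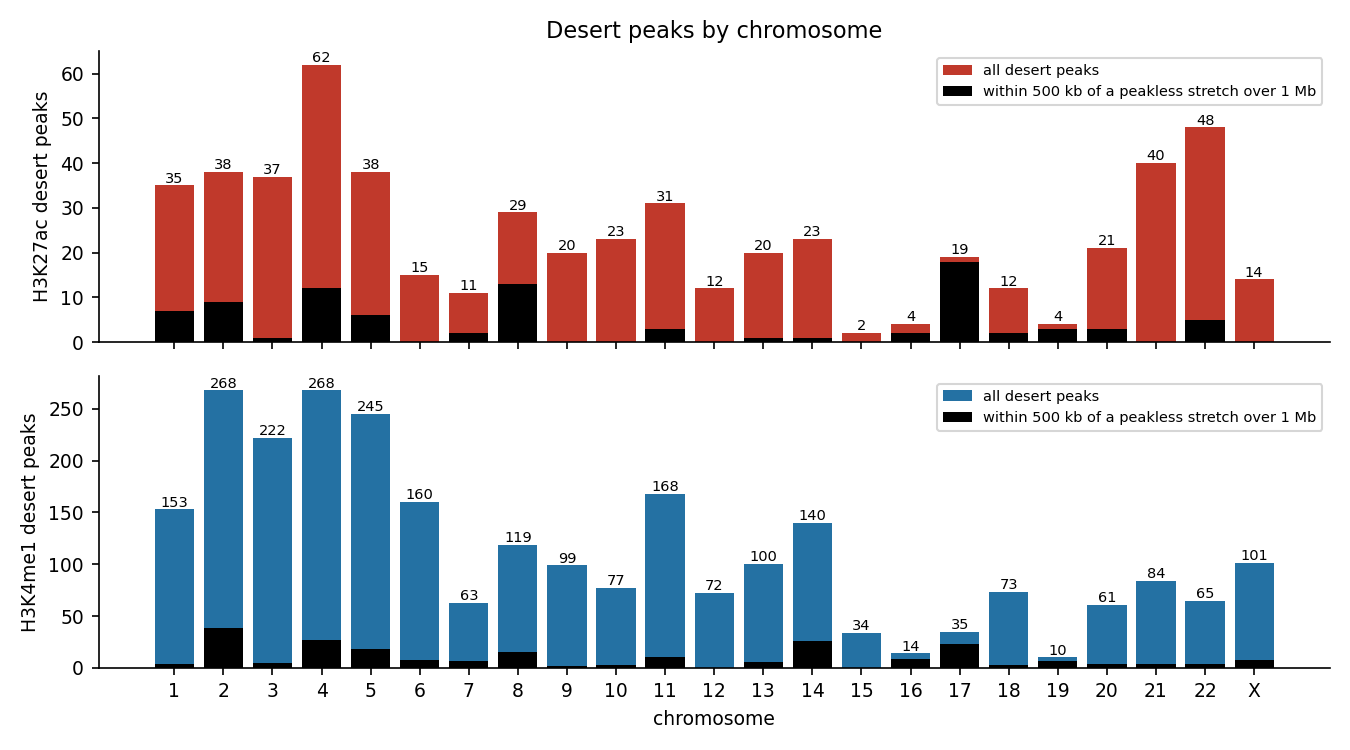
Number of H3K27ac (top) and H3K4me1 (bottom) desert peaks on each chromosome, with the black part of each bar for peaks within 500 kb of a stretch over 1 Mb without any peak. Chromosome 4 has 62 H3K27ac peaks, chromosome 22 has 48, and on chromosome 17 nearly the whole H3K27ac bar is black.

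Desert peaks of both lists were joined over gaps of up to 12.48 kb (the widest gap closed under the stitching distance usual in super-enhancer calling), which gave 1480 groups, of which 736 were single peaks, 363 were pairs and 381 were clusters of 3 or more. The clusters held 393 H3K27ac peaks (70.4%) and 1334 H3K4me1 peaks (50.7%). Both marks were present in 216 clusters, H3K4me1 alone in 163 and H3K27ac alone in 2. The median cluster spanned 5.41 kb, and 16 clusters had 10 peaks or more. The single peaks were 53 H3K27ac and 683 H3K4me1. An H3K27ac peak that overlapped a desert H3K4me1 peak was joined to it and could not be single. Only 148 H3K27ac desert peaks had no H3K4me1 overlap. The joining of overlapping marks also adds to the cluster shares, so the 2 marks are not compared by them. Neighbouring peaks of 1 mark within a desert were a median of 24.2 kb apart for H3K27ac and 12.3 kb for H3K4me1.

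The 2 clusters with the most peaks lay in MIR99AHG, the lncRNA that hosts the miR-99a, let-7c and miR-125b genes of chromosome 21. The first, chr21:16383956-16492648, was also the longest at 108.7 kb and held 19 H3K27ac and 34 H3K4me1 peaks. The second, chr21:16524021-16588810, held 7 and 16 over 64.8 kb and contained the genes MIR99A and MIRLET7C. The third, chr3:80733519-80806831, held 6 and 15 beneath LOC105377177 and LINC02050. The other named clusters held 11 to 19 peaks each, and 3 of them lay on chromosome 22 before OR11H1, over LOC107984037, LOC102723769 and LOC105379516.

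Other clusters differed in the balance of the marks. The cluster chr4:131726974-131751868, in the desert before PCDH10, held 9 H3K27ac and 3 H3K4me1 peaks, of which 2 H3K27ac peaks overlapped H3K4me1. Its deepest H3K27ac peak held 22 fragments. The immunoglobulin cluster chr14:106515916-106556943 held the reverse mix, 1 H3K27ac and 12 H3K4me1 peaks. The cluster chr22:47682208-47710407 within the lncRNA gene EPIC1 held 2 and 9 peaks, and its deepest H3K27ac peak held 5 fragments.

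MIR99AHG was the noncoding gene with the most desert peaks beneath it. It spans chr21:16070488-16631727, 561.2 kb, and only its distal portion is more than 500 kb from USP25 and CXADR. The whole span held 67 H3K27ac and 120 H3K4me1 peaks, of which 28 and 54 were desert peaks. The desert H3K27ac peaks had 6 to 79 fragments with a median of 19, and 22 of 28 overlapped H3K4me1 (78.6%, 59.0 to 91.7). The desert H3K4me1 peaks had 9 to 93 fragments with a median of 20, and 22 of 54 overlapped H3K27ac (40.7%, 27.6 to 55.0), above the 16.6% of all H3K4me1 desert peaks. The latter were shallower, with a median of 12 fragments, and overlap rose with depth. All H3K4me1 desert peaks of 19 to 33 fragments overlapped H3K27ac in 27.7%. The part of depth in the difference was not tested. The gene thus held 5.02% of all H3K27ac and 2.05% of all H3K4me1 desert peaks.

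Deep sites of MIR99AHG in the desert lay along its length. Toward USP25, chr21:16398317-16398572 held 79 H3K27ac fragments (62.5 to 98.5) and chr21:16388994-16389316 held 93 H3K4me1 fragments (75.1 to 113.9). In the same stretch, chr21:16419221-16419447 held 61 H3K27ac fragments (46.7 to 78.4) and its H3K4me1 partner held 67. Near MIR125B2, chr21:16587082-16587380 held 43 H3K27ac fragments (31.1 to 57.9), and its H3K4me1 partner held 79 (62.5 to 98.5). Between them, chr21:16535105-16535327 held 40 H3K27ac (28.6 to 54.5) and 38 H3K4me1 fragments and reached 6 bp into the MIR99AHG start window shown above, 3.76 kb before MIR99A. The deepest H3K27ac site of the whole gene, 148 fragments, lay outside the desert.

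**Figure D4:**
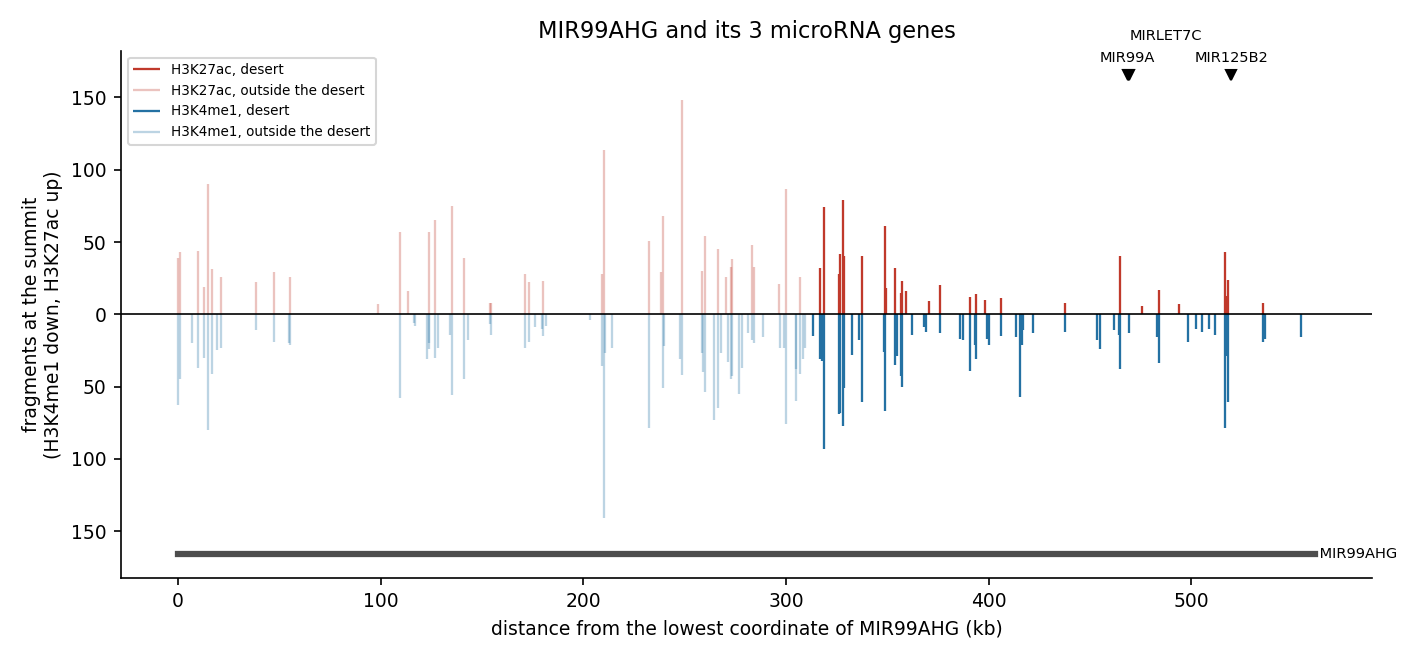
Fragments at the summit of each H3K27ac peak (up) and H3K4me1 peak (down) along MIR99AHG, against distance from its lowest coordinate in kb, with desert peaks in full colour and triangles at the microRNA genes. Among desert peaks the highest are 79 H3K27ac and 93 H3K4me1 fragments, and paired peaks flank MIR99A, MIRLET7C and MIR125B2.

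Of the 45 microRNA genes in deserts, 14 had a peak within 10 kb, all 14 with H3K4me1 and 10 with H3K27ac. Over all 1911 microRNA genes 67.1% had a peak that near, 61% with H3K4me1 and 54.6% with H3K27ac. MIRLET7C alone had a peak directly beneath, chr21:16539769-16539916 with 13 H3K4me1 fragments (6.92 to 22.2) and no H3K27ac. MIR99A lay 0.6 kb from the same peak. MIR125B2 lay 1.498 kb from an H3K27ac peak of 24 fragments (15.4 to 35.7) and 1.43 kb from an H3K4me1 peak of 61 (46.7 to 78.4). MIR4458 lay 2.62 kb from the deepest H3K27ac desert peak. The H3K27ac peak nearest to MIRLET7C, 4.501 kb away, held 40 fragments (28.6 to 54.5).

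MIR221 and MIR222, whose products share the other repeated seed, lay at one end of MIR222HG in the desert between DIPK2B and KRABD4. Their nearest H3K27ac peak, at 4.32 kb and 3.46 kb, held 13 fragments (6.92 to 22.2). MIR222HG carried its deepest pair at its other end, over the start window shown above, where chrX:45770140-45770415 held 23 H3K27ac fragments (14.6 to 34.5) and chrX:45770153-45770405 held 41 H3K4me1 fragments (29.4 to 55.6). The cluster around it, chrX:45750584-45780516, had 4 H3K27ac peaks, each with H3K4me1, and 8 H3K4me1 peaks. MIR135A2 lay 3.75 kb from an H3K27ac peak of 22 fragments past the end of its host RMST, a lncRNA of neural development.

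LOC105377177 on chromosome 3 held 6 H3K27ac and 23 H3K4me1 desert peaks and, unlike MIR99AHG, lay wholly in a desert. Its deepest H3K27ac peaks lay at the end it shares with LINC02050, where adjacent peaks held 90 and 176 fragments. The next peak, with 72 fragments, lay past that end, within LINC02050 only. H3K4me1 at those 3 sites was 44, 103 and 52 fragments. The deepest H3K4me1 peak of the locus lay inside the gene, at chr3:80696443-80696667, with 113 fragments (93.1 to 135.9) and 36 of H3K27ac. The order of the marks was therefore reversed between the end of the gene and its interior.

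**Figure D5:**
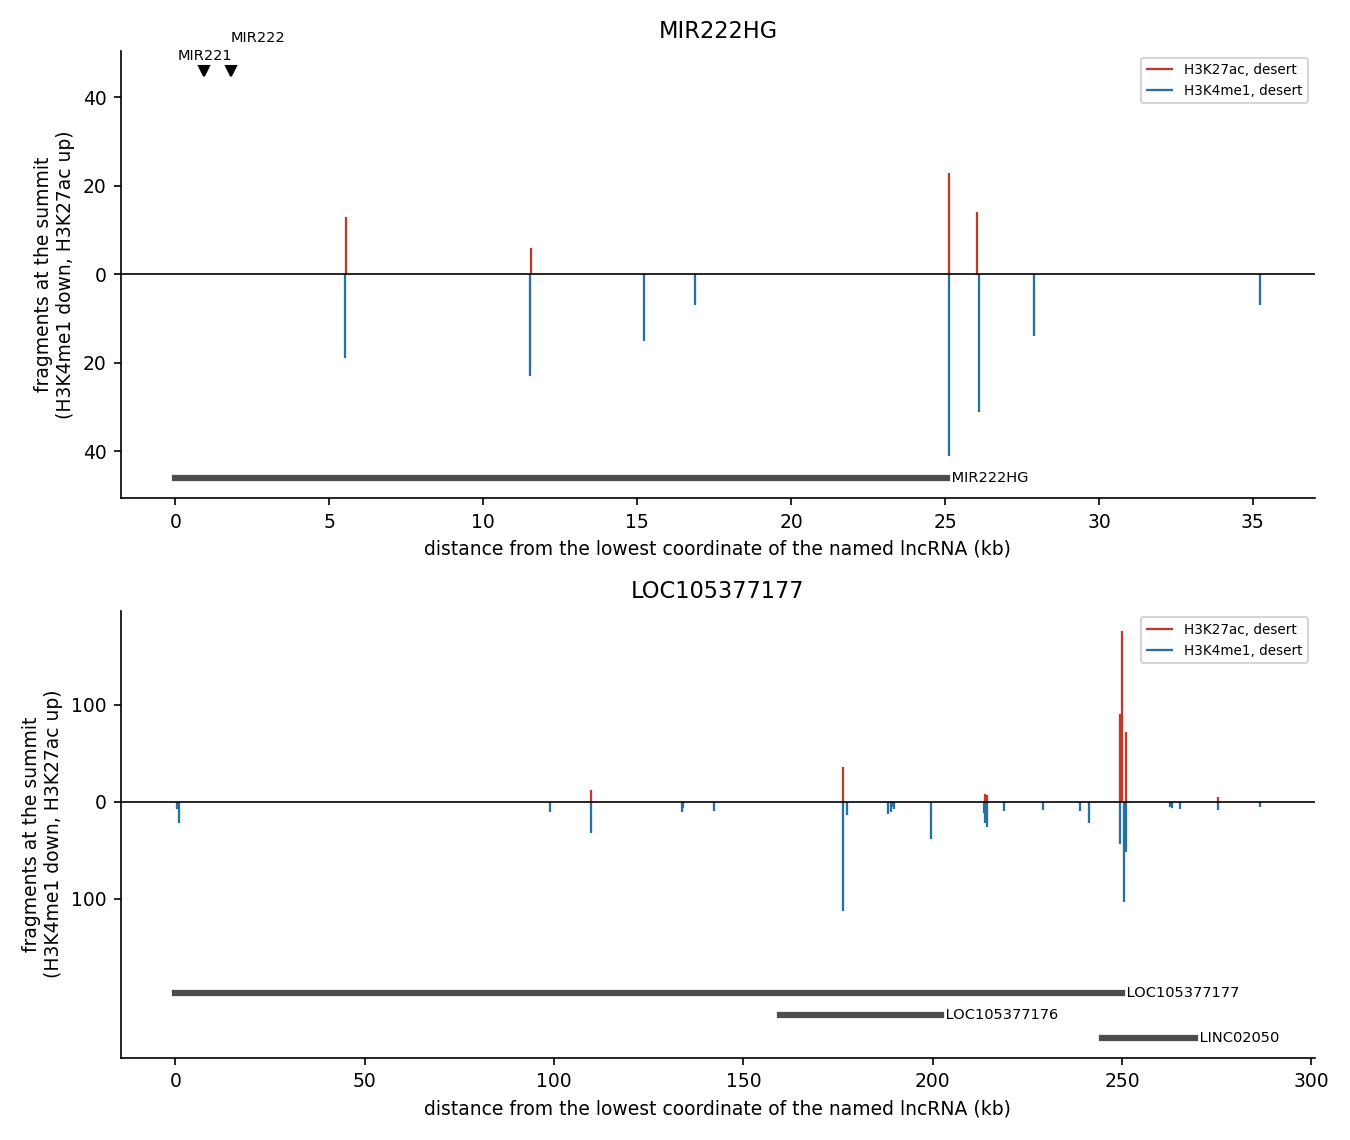
Fragments at the summit of each H3K27ac peak (up) and H3K4me1 peak (down) around MIR222HG and LOC105377177, against distance in kb from the lowest coordinate of each lncRNA, whose spans are grey bars. The MIR222HG pair with 23 and 41 fragments stands at the end away from MIR221 and MIR222, and the 176-fragment H3K27ac peak stands at the end of LOC105377177 that overlaps LINC02050.

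Across all deserts, 320 noncoding genes had a desert peak beneath them, of which 279 were lncRNAs and 191 carry only a LOC symbol. H3K27ac lay beneath 133 of them, H3K4me1 beneath 309 and both beneath 122. A noncoding gene covered 212 H3K27ac desert peaks, 38.0% (33.9 to 42.2), against 17.5% of all H3K27ac peaks, and 906 H3K4me1 desert peaks, 34.4%, against 17.2% of all. Intergenic peaks nearer to coding genes gave 31.8% and 31.0%, between the desert and the whole-list shares and closer to the former. H3K27ac desert peaks over a noncoding gene had a median of 12 fragments and overlapped H3K4me1 in 79.7%, against 8 fragments and 69.7% (64.5 to 74.5) over none.

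After MIR99AHG and the immunoglobulin locus IGH (12 H3K27ac and 40 H3K4me1 desert peaks), the noncoding genes with the most desert peaks were LOC105377177 (6 and 23), LOC105376214 (3 and 22), LINC03000 (4 and 20) and EPIC1 (5 and 15). LOC124909415 (3 and 17), LINC02055 (3 and 16), LOC105374511 (3 and 14) and LOC124902439 (3 and 13) followed. LOC105376214 reaches into the desert beside KLF4, which encodes a reprogramming and epithelial differentiation factor, and LINC03000 lies between MAT2B and TENM2. Among lncRNAs wholly within deserts, 207 of 893 had a peak (23.2%, 20.4 to 26.1) and 83 had H3K27ac (9.29%), against 47.1% and 32.9% of all 18177 lncRNA genes. The median length was 17.0 kb in deserts and 9.08 kb over all lncRNA genes. The desert lncRNAs with a peak were longer, with a median of 37.3 kb against 13.2 kb for those without, so length moved with this share and its part was not tested. Of 786 pseudogenes, which have a median length of 0.722 kb, 15 had a peak (1.91%), against 5% of all 15212 pseudogenes.

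Start windows of desert noncoding genes were rarely marked. Of 654 RefSeq start windows in deserts, 24 overlapped H3K27ac (3.67%, 2.37 to 5.41), against 21.2% over all noncoding gene starts. With H3K4me1 there were 34 (5.20%, 3.63 to 7.19), against 23% over all noncoding gene starts, and 20 windows had both. Coding starts carried H3K27ac in 54.5%. The 24 acetylated desert windows had a median of 17 CpG pairs and 59.3% G or C, and the 630 others had 2 CpG pairs and 38.7%. Of the windows shown above, LINC02226 held more CpG pairs than the median of 17, and MIR222HG, MIR99AHG and LOC124903399 held fewer. Others were richer still, such as LOC105377614 with 38.

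Short motifs were counted in the same start windows on both strands. The forkhead core TGTTTAC was present in 4.43% of desert windows and in 3.42% of all RefSeq start windows of the same length, most of which are coding. The GATA-type motif AGATAA was present in 24.2% and 10.3%, the AP-1 motif TGANTCA in 13.1% and 7.68%, and CCAATAAA, a HOXB13-type motif, in 2.60% and 0.938%. In noncoding start windows outside deserts the 4 shares were 4.41%, 14.0%, 10.2% and 1.19%, so the forkhead share was nearly that of deserts and the other differences were smaller than against all windows. Among the 24 acetylated desert windows the forkhead, GATA-type and AP-1 motifs each occurred in 1 window and the HOXB13-type motif in 0. The desert windows are richer in A and T than the others (median 39.3% G or C, against 50.7% in other noncoding and 58.7% in all windows), which moves with these shares.

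Deserts bordered by a listed developmental or lineage transcription factor gene held more H3K4me1 per Mb of their full length. There were 30 such deserts, of which 25 held a peak (83.3%) and 15 held H3K27ac (50%, 31.3 to 68.7). Among the 293 others the shares were 70.6% and 44.7% (38.9 to 50.6), so the H3K27ac shares were close. The 30 held 37 H3K27ac peaks, 1.91 per Mb, and 295 H3K4me1 peaks, 15.2 per Mb. The 293 others held 1.65 and 7.40 per Mb. These lengths include the long peakless stretches. With those left out, all deserts together held 15.7 H3K4me1 peaks per Mb. The 30 were not measured that way, so the part of the stretches in the difference was not tested. Among the 30, the 10 with the most peaks accounted for 230 of the 295 H3K4me1 peaks. The desert before NR2F1, a nuclear receptor gene, held 2 H3K27ac and 37 H3K4me1 peaks. That before SOX11, a neural factor gene, held 4 and 28, that after TBX3, a T-box gene of limb and mammary development, held 6 and 25, and that before TFAP2A, an epithelial and neural crest factor gene, held 5 and 25. Before NR2F2 there were 2 and 21. In the deserts before ID4 and before BCL11B, 21 H3K4me1 peaks were listed in each and no H3K27ac peak was listed. No peak of either mark was listed in the deserts beside MEIS1, ZIC1 or DACH1.

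Of 52 noncoding RNAs linked to prostate or other cancers, 51 were found in the gene table, 2 lay wholly in deserts and 1, MIR99AHG, reached into one. PCGEM1, a prostate-enriched lncRNA 554.9 kb from the nearest coding gene, had no peak listed in its span in either list used here. Its nearest H3K27ac peak was 817.4 kb away and its nearest H3K4me1 peak 190.1 kb away. CASC17, in the desert between KCNJ2 and SOX9, had 1 H3K4me1 peak of 16 fragments and no H3K27ac peak in its span.

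Median depth differed little across the 500 kb limit. H3K27ac peaks held a median of 8 fragments at 250 to 500 kb and 9 at 500 to 1000 kb. H3K4me1 peaks held 13 and 12. The peaks nearest to the limit are given as examples, and 3 on each side are too few to show or exclude a break. The H3K27ac peaks just inside it, at 500.6, 501.0 and 501.4 kb, held 35, 21 and 13 fragments, and those just outside, at 499.2, 499.3 and 499.4 kb, held 14, 17 and 11. Those at 500.6 and 501.0 kb both lay between GADD45G and DIRAS2. For H3K4me1, the 3 just inside held 6, 14 and 17 fragments and the 3 just outside held 8, 18 and 23. One of the latter lay in MIR99AHG at 499.9 kb from USP25.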

How the data were processed

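H3K27ac and H3K4me1 were mapped by CUT&Tag in 1 library each. The tools named are BWA and MACS2 and the build is hg38, per the submitters' processing notes, and versions are not given in the sources used here. The authors' deposited peak lists give for each peak a score, a fold enrichment (a ratio of summit signal to local background, each with 1 added) and −log10 p and q values at the summit. Peaks were called per sample, with q up to 0.0499 (H3K27ac) and 0.0488 (H3K4me1). The secondary antibody is labelled rabbit anti-mouse although the primaries are rabbit antibodies, and its effect was not tested.

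Overlapping intervals of a list would have been merged, and 0 were joined. Fragments per summit were solved from fold and p within 0.001 in −log10 p or a relative 0.0001, and 2 H3K27ac and 7 H3K4me1 desert peaks had a second solution, of which the closer was used. Distances ran to the ends of 19974 protein-coding RefSeq genes (GRCh38.p14). RefSeq does not class immunoglobulin segments as protein-coding, so that locus counts as desert. The table places 45 coding genes over 1 Mb before the first peak of their chromosome, and the effect of these placements on the deserts was not tested. Clusters were 3 or more peaks joined over gaps no wider than the stitching distance usual in super-enhancer calling. Scripts (Python 3.11.15, numpy 2.4.6, pandas 2.3.3, scipy 1.17.1) were tested on simulated data. Named were the 12 clusters, 10 deserts and 10 noncoding genes with most peaks, the 10 deepest peaks per mark, list members in deserts and microRNA genes; other sites were chosen after their values were seen. The members and lists were chosen with earlier results of these data known. The planned windows of sequence around summits and their motifs were not analysed here, as no genome was used. Alternatives covered the distance limit, peak filters, gene classes, overlap and cluster gaps.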

Additional observations from a re-analysis of the deposited data

How the results depend on the processing

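No paired analysis was possible because the labels give 1 library per antibody and no replicate numbers, and no result comes from a test. With no replicate or background library, a shallow peak cannot be told apart from noise of its library. Of 66 values under 14 alternatives, 42 stayed within 1.5 times the count or within the 95% interval of the share reported, and 24 moved.

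A limit of 250 kb gave 1542 H3K27ac and 7202 H3K4me1 peaks, 652 clusters with both marks, and 344 and 774 noncoding genes with H3K27ac and H3K4me1 beneath. A limit of 1000 kb gave 136, 526, 43, 29 and 73, with 19.6% of H3K4me1 peaks overlapping H3K27ac. With −log10 q of at least 5, 346 H3K27ac peaks remained, and the overlaps were 83.8% of H3K27ac and 14.8% of H3K4me1 peaks. With at least 10 fragments there were 271 and 1660 peaks, overlaps of 78.6% and 13.6% and 107 clusters with both marks. The H3K4me1 overlap was 18.3% without coding genes of LOC symbols and 19.9% with H3K27ac within 500 bp. It was 15.2% without the 2 deserts of most peaks, an alternative chosen after seeing the data. Without noncoding LOC genes, 62 and 125 noncoding genes had H3K27ac and H3K4me1 beneath. The H3K4me1 overlap lay between 13.6% and 19.9% under the 10 alternatives run, all below the 31.2% of nearer intergenic peaks under the main settings. These values lay on both sides of the 16.2% of peaks at 250 to 500 kb. Leaving out immunoglobulin and T cell receptor genes, also chosen after seeing the data, moved no value.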
